A study of Mus musculus with 61 samples.

Results

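The rostral end of the mouse brain was represented by 3 coronal fractions, C13, Co15 and Co16, out of 29 coronal fractions and 61 arrays in all. They were chosen by position alone: C13 is the last of the 13 fractions of the coronal series C, and Co15 and Co16 are the last of the 16 fractions of the slightly oblique coronal series Co, both numbered from posterior to anterior. They were compared with the other 26 coronal arrays (C1 to C12 and Co1 to Co14), with the 5 adjoining frontal fractions among these (C11, C12 and Co12 to Co14), and the genes they pointed to were looked up in the sagittal series S and So.

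In the study, transcript density was mapped by cutting each brain whole into fractions along 1 axis, so that 6 series from 6 brains (coronal, sagittal and horizontal, each in a plain and an oblique version) described the tissue in 3 dimensions. Every fraction held 200 slices of 5 µm, that is 1 mm of brain. Each group here came from C57BL/6J mice, all male and 8 weeks of age, that were perfused with RNAlater and embedded in OCT, and the labels give no mutant allele or treatment for any group, so the groups were defined only by where the tissue was cut. Series C is 1 brain and series Co is another. Neighbouring fractions of 1 brain are not independent animals, and p-values here measure spread among fractions of 2 brains.

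The main and accessory olfactory bulbs form the front of the rodent brain. Olfactory sensory neurons of the nose send their axons, wrapped in ensheathing glia, through the outer nerve layer into spherical glomeruli, where they synapse on mitral and tufted cells, the glutamatergic output neurons. Periglomerular and granule cells are inhibitory interneurons, many of which arise throughout life from neuroblasts that migrate forward from the subventricular zone, and a subset of periglomerular cells makes dopamine. The sensory neurons' cell bodies stay in the nose, so their RNA reaches the brain only as far as it is carried in axons, or with attached nasal tissue.

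A level below is the log2 array signal of a gene's probe minus the 75th percentile of the same array, so 0 marks that percentile and a step of 1 is a 2-fold change; levels of different genes are not compared, since each rests on its own probe. The scanner's 75th percentile lay between 921 and 1679 on the rostral arrays and between 921 and 1919 over the coronal arrays, with 65.1% to 67.9% and 61.5% to 73.0% of probes well above background, and no spot was saturated. C13 was scanned on another day than C1 to C12, together with horizontal arrays, so within C the rostral position and the scan cannot be told apart; all Co arrays shared 1 scan day, and Co15 and Co16 shared a slide with Co13 and Co14. Calls in Co alone therefore stand beside the pooled ones.

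The label of olfactory bulb was first checked against markers of its cell types. Transcripts for the mitral and tufted cell factor Tbx21 stood at 3.00 in C13, 2.52 in Co15 and 2.09 in Co16, against -6.19 to 2.48 (median -5.44) on the other C arrays and -6.44 to 2.43 (median -5.41) on the other Co arrays. On all 3 rostral arrays Tbx21 was high, C12 and Co14 reached similar levels, and arrays caudal to the frontal fractions lay lower, with -5.09 in C10 and -5.54 in Co11. Olfactory marker protein, Omp, a protein of mature olfactory sensory neurons, had -0.0076 in C13, 0.87 in Co15 and 1.74 in Co16, against -5.78 to -0.91 (median -5.33) on the other C arrays and -6.15 to -0.63 (median -5.66) on the other Co arrays. Both series' rostral arrays lay above every other array of their own series for Omp. Of the 12 listed cortical markers, 11 were also well above background on all 3 rostral arrays, and the list's mean linear level, as log2, was 1.68, 1.17 and 0.77 in C13, Co15 and Co16, against 0.35 to 1.91 on the other C arrays and 0.12 to 2.01 on the other Co arrays, so the fractions were not free of transcripts that cortex uses as well.

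**Figure D1:**
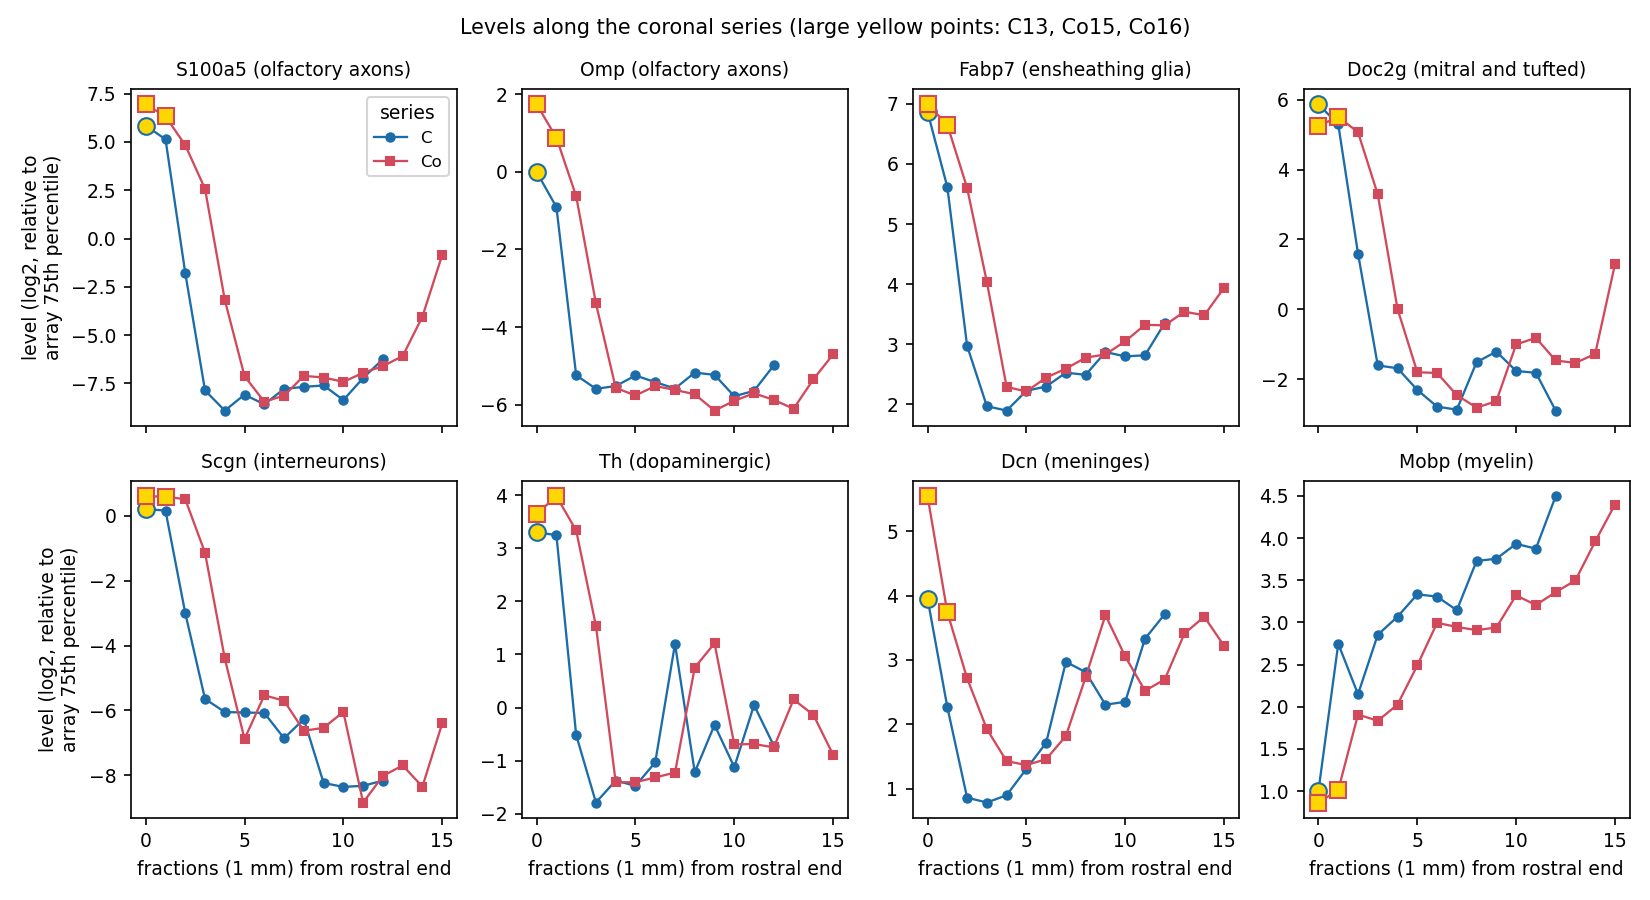
Levels of 8 genes (log2 signal relative to the array's 75th percentile) along the coronal series C (circles) and Co (squares) by distance from the rostral end in fractions of 1 mm, 1 array per point; large yellow points are C13, Co15 and Co16. Genes of olfactory axons, ensheathing glia, mitral and tufted cells and interneurons were high at the rostral end and lower 5 fractions away from it, whereas Mobp of myelin was lowest there and Dcn was highest in Co16.

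Against the other coronal fractions, 2627 of 15147 genes tested (17.3%) were higher in the rostral fractions and 2105 (13.9%) were lower (limma with series as a block, Benjamini-Hochberg adjusted p below 0.05). In Co alone 1448 of 15145 genes (9.56%) were higher and 1197 (7.9%) lower. Of the 2627 higher genes, 1391 were also called in Co alone (53.0% of these and 96.1% of the Co calls), and of the 2105 lower genes 1043 were (49.5% and 87.1%). On all 3 rostral arrays 913 genes (6.03%) lay above every other array of their own series and 961 (6.34%) lay below. With slide as a fixed block, which in effect sets Co15 and Co16 against Co13 and Co14, 630 of 15125 genes were higher and 295 lower. Under that block 3 of 14 olfactory sensory genes (Rtp1, Cnga2 and Nqo1) were higher, and 0 of 11 myelin, 0 of 7 ensheathing glia, 0 of 12 mitral and tufted genes and 0 of 10 interneuron factors were called. In bulk tissue fewer cells of a type and less RNA per cell cannot be told apart.

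Most genes of olfactory sensory neurons were called. Of 15 listed genes 14 were detected, of which 9 were higher and 3 lower, and in Co alone 9 were higher and 2 lower (Gap43 and Ncam2), with a median log2 difference of 1.30 against -0.012 over all genes. Over all genes 17.3% were higher and 13.9% lower, and in Co alone 9.56% and 7.9%. The calcium-binding protein gene S100a5 stood at 5.84 in C13, 6.32 in Co15 and 6.95 in Co16, against -8.91 to 5.14 (median -7.73) on the other C arrays and -8.45 to 4.84 (median -6.78) on the other Co arrays. All 3 rostral arrays were above all others, and C12 (5.14) and Co14 (4.84) came next; the probe was well above background on only 8 of the other 26 arrays. S100a5 rose (log2 difference 11.59 ± 2.33 (SE), adjusted p = 0.000491), but the size of the difference rests on arrays most of which did not measure it.

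Omp rose with log2 difference 5.95 ± 0.81 (SE), adjusted p = 6.76e-06. The stomatin-like gene Stoml3 stood at 0.048 in C13, 1.03 in Co15 and 1.58 in Co16, against -8.09 to -1.27 (median -5.94) on the other C arrays and -9.12 to -0.85 (median -6.07) on the other Co arrays. The rostral arrays did not overlap the others, and Stoml3 rose (log2 difference 6.78 ± 1.07 (SE), adjusted p = 3.34e-05). Rtp2, which encodes a chaperone that brings odorant receptors to the cell surface, was at -3.29 in C13, -2.38 in Co15 and -1.33 in Co16, against -9.20 to -4.33 (median -8.41) on the other C arrays and -9.74 to -4.02 (median -8.33) on the other Co arrays. Only 2 of the other 26 arrays measured Rtp2 well above background, against all 3 rostral arrays (log2 difference 5.67 ± 0.81 (SE), adjusted p = 1.16e-05), so the size of this difference rests largely on background values. In Co alone the differences were 11.33 for S100a5, 6.45 for Omp, 7.30 for Stoml3 and 6.18 for Rtp2, and all 4 stayed called.

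The olfactory signalling genes did not move as 1 block. The cyclic nucleotide-gated channel genes Cnga2 (0.87, adjusted p = 1.16e-05) and Cngb1 (1.79, adjusted p = 8.71e-05) rose, as did Gng13, a G protein gamma subunit (1.26, adjusted p = 0.0167), Rtp1 (1.35, adjusted p = 0.00885) and the quinone reductase Nqo1, a marker of the dorsal zone of olfactory axons (1.73, adjusted p = 0.000327). In contrast, the adenylyl cyclase Adcy3 (-0.89, adjusted p = 0.00324), the G protein alpha subunit Gnal (-1.22, adjusted p = 0.00608) and the growth cone protein Gap43 (-1.06, adjusted p = 0.000179), all used widely in forebrain neurons, fell. The chloride channel Ano2 (-0.27, adjusted p = 0.883) and the adhesion molecule Ncam2 (-0.26, adjusted p = 0.65) were detected and not called, and Cnga4 was not detected. Without Co16 the calls of Gng13 (0.99, adjusted p = 0.145) and Rtp1 (0.89, adjusted p = 0.162) were lost, and without C13 those of Adcy3 (-0.43, adjusted p = 0.222) and Gnal (-0.95, adjusted p = 0.108); another Gnal probe had a log2 difference of 0.27.

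Of 8 listed ensheathing glia genes 7 were detected, 4 rose and none fell, in the pooled fit as in Co alone, with a median difference of 2.47. The share higher over all genes was 17.3% pooled and 9.56% in Co alone. Fabp7, a fatty acid-binding protein of radial and ensheathing glia, stood at 6.86 in C13, 6.65 in Co15 and 6.99 in Co16, against 1.90 to 5.61 (median 2.66) on the other C arrays and 2.22 to 5.60 (median 3.18) on the other Co arrays. The 3 rostral arrays were the highest of their series and lay close together (log2 difference 3.74 ± 0.53 (SE), adjusted p = 1.12e-05). The water channel Aqp1 (4.79, adjusted p = 0.00405), the secreted Wnt antagonist Frzb (3.49, adjusted p = 0.000501) and the neuropeptide Npy (2.47, adjusted p = 0.00162) rose as well, although Npy is also made by cortical and striatal interneurons. The neurotrophin receptor Ngfr was above every other array of its own series on all 3 rostral arrays but missed the threshold (1.24, adjusted p = 0.0583), and its other probe had a log2 difference of 0.18.

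Among the bulb's output neurons, 12 listed mitral and tufted genes were detected, 6 rose and 1 fell (4 and 0 in Co alone). The shares over all genes were 17.3% and 13.9% (9.56% and 7.9% in Co alone). Doc2g, a synaptotagmin-like double C2 protein, stood at 5.87 in C13, 5.51 in Co15 and 5.25 in Co16, against -2.90 to 5.29 (median -1.73) on the other C arrays and -2.82 to 5.07 (median -1.37) on the other Co arrays. Within each series the rostral levels were the highest, with C12 and Co14 next, and C12 lay above Co16; Doc2g rose (log2 difference 6.32 ± 1.33 (SE), adjusted p = 0.000747), and its other probe had a log2 difference of 6.38. Tbx21 (6.90, adjusted p = 0.0011), the protocadherin Cdhr1 (5.62, adjusted p = 0.00198), the T-box factor Eomes (5.01, adjusted p = 0.0137), the neuropeptide neuromedin B, Nmb (4.70, adjusted p = 0.000131), and the extracellular matrix protein Reln (1.07, adjusted p = 0.0432) rose, and the ubiquitin hydrolase Uchl1 fell (-0.44, adjusted p = 0.0219). The call of Eomes was lost without C13 (4.51, adjusted p = 0.104), that of Reln without any 1 of 9 arrays, the 3 rostral ones and Co7 to Co12 (1.12, adjusted p = 0.126 without C13), and that of Uchl1 without Co15 (-0.34, adjusted p = 0.162) or Co16 (-0.43, adjusted p = 0.0893).

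Of 13 listed transcription factors of bulb interneurons 10 were detected, 4 rose (3 in Co alone) and none fell, against 17.3% higher over all genes (9.56% in Co alone). Among these factors, Sp8 stood at 1.41 in C13, 1.06 in Co15 and 0.88 in Co16, against -7.28 to 1.60 (median -4.86) on the other C arrays and -8.03 to 1.03 (median -5.08) on the other Co arrays. C12 exceeded C13, so the groups overlapped, yet Sp8 rose (log2 difference 5.62 ± 1.47 (SE), adjusted p = 0.00498). Sall3 (2.52, adjusted p = 0.00243), Pbx3 (2.10, adjusted p = 0.00195) and Meis2 (1.98, adjusted p = 0.0188) rose, whereas Dlx2, which specifies GABAergic precursors, was not called (4.83, adjusted p = 0.0927), with levels of 1.93 in C13, 1.46 in Co15 and 0.97 in Co16, against -8.48 to 2.07 (median -1.55) on the other C arrays and -9.15 to 1.62 (median -2.21) on the other Co arrays. Dlx1 (4.94, adjusted p = 0.0871) and Dlx5 (3.99, adjusted p = 0.0717) were not called either, and Meis2 was lost without C13 (1.80, adjusted p = 0.123) or Co15 (1.93, adjusted p = 0.0699). With the 5 frontal fractions left out, an alternative chosen after seeing the data, 8 of the 10 were higher, against 2840 of 15147 over all genes.

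Scgn, encoding the calcium sensor secretagogin of periglomerular and granule cells, stood at 0.21 in C13, 0.60 in Co15 and 0.61 in Co16, against -8.37 to 0.16 (median -6.18) on the other C arrays and -8.85 to 0.51 (median -6.47) on the other Co arrays. Within each series the rostral arrays stood above the rest by small margins over C12 and Co14, although Co14 lay above C13, and Scgn rose (log2 difference 6.39 ± 1.47 (SE), adjusted p = 0.0017). The thyrotropin-releasing hormone gene Trh (3.83, adjusted p = 0.00156) and the synaptic vesicle protein gene Synpr (2.24, adjusted p = 0.00143) rose, whereas the calcium buffers Calb1 (-2.46, adjusted p = 0.00167) and Pvalb (-2.89, adjusted p = 0.0145), strong in cerebellar Purkinje cells and in cortical interneurons, fell; Pvalb was no longer called without C13 (-2.90, adjusted p = 0.0727) or Co15 (-2.64, adjusted p = 0.0767). Calretinin, Calb2, was above every array of its series on C13, Co15 and Co16 and not called (1.95, adjusted p = 0.0591). Of 4 listed genes of inhibitory transmission, Gad1, which makes GABA (1.44, adjusted p = 0.000981), and its vesicular transporter Slc32a1 (0.56, adjusted p = 0.0154) rose, and the latter was lost without C13 (0.36, adjusted p = 0.252) or Co15 (0.54, adjusted p = 0.0614).

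Th, the rate-limiting enzyme of dopamine synthesis, stood at 3.31 in C13, 3.98 in Co15 and 3.65 in Co16, against -1.79 to 3.25 (median -0.88) on the other C arrays and -1.41 to 3.34 (median -0.69) on the other Co arrays. Co15 held the highest level, C13 exceeded C12 by only 0.055, and Th rose (log2 difference 3.86 ± 0.80 (SE), adjusted p = 0.00063; 3.93 in Co alone). The dopamine transporter Slc6a3 (3.05, adjusted p = 0.166) was not called, and the highest of the other arrays, C6 and Co7, stood at 4.25 and 3.46. Th was the 1 gene called of the 6 dopaminergic genes, near the 17.3% higher of all genes. Neuroblast genes showed 6 higher and 1 lower of 12 (17.3% and 13.9% over all genes), namely Prok2, a chemoattractant of migrating neuroblasts (3.97, adjusted p = 0.0135), Igfbpl1 (3.20, adjusted p = 0.0196), the microtubule protein doublecortin, Dcx (3.06, adjusted p = 0.00582), Sox4 (2.35, adjusted p = 0.000165), the polysialyltransferase St8sia4 (0.74, adjusted p = 0.00511) and Dpysl3 (0.55, adjusted p = 0.0354) against St8sia2 (-0.76, adjusted p = 0.0166). Only Sox4 was called in Co alone, and this 1 of 12 lay near the 9.56% of all genes. Without C13 Prok2 (3.70, adjusted p = 0.0911), Igfbpl1 (3.07, adjusted p = 0.103), Dcx (2.91, adjusted p = 0.051), St8sia4 (0.64, adjusted p = 0.0665) and Dpysl3 (0.50, adjusted p = 0.173) were lost (Igfbpl1 and Dpysl3 also without Co15 or Co16), as was St8sia2 without Co16 (-0.45, adjusted p = 0.27).

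**Figure D2:**
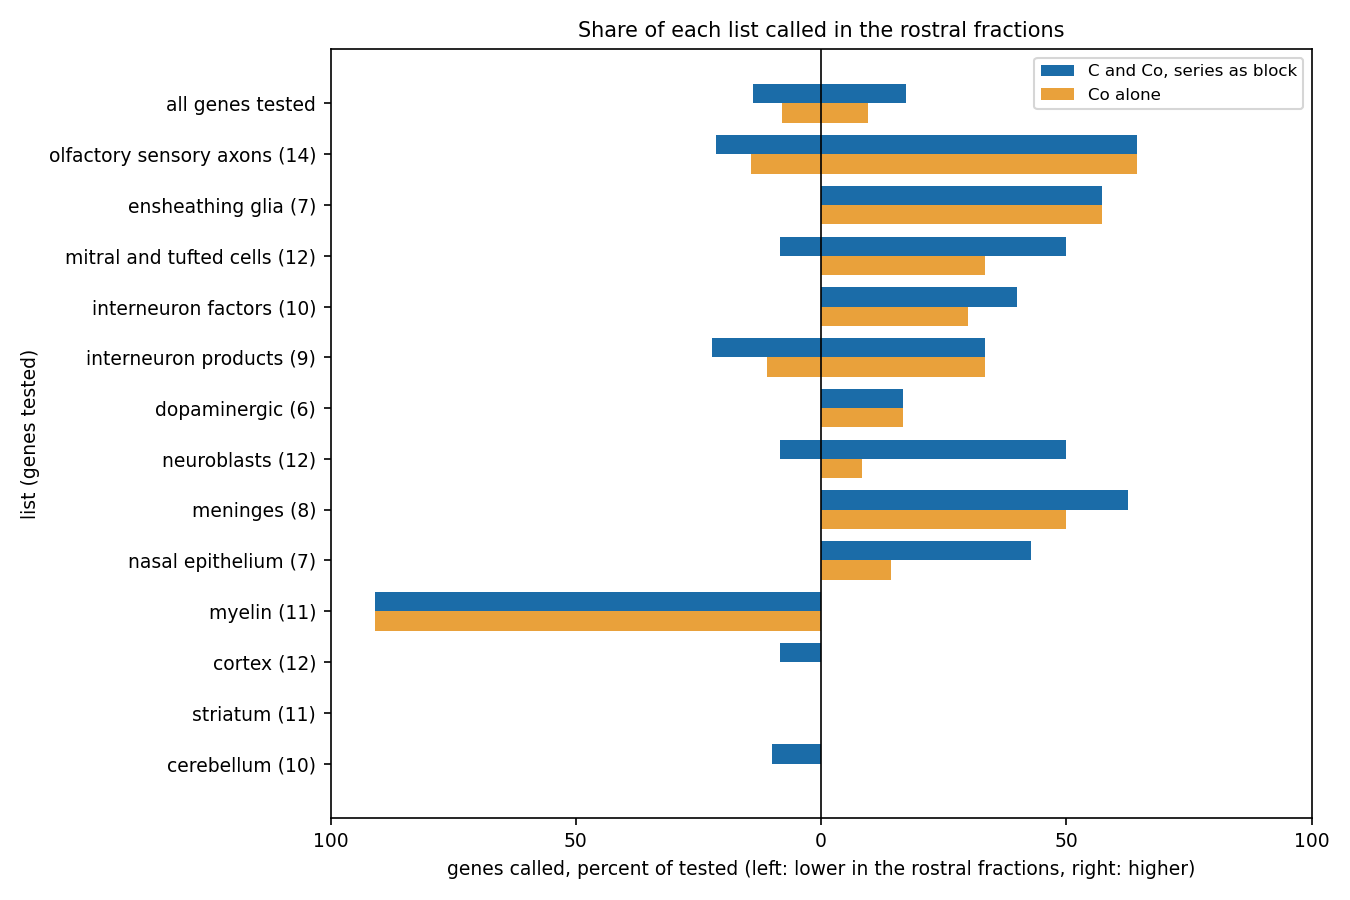
Share of each list's tested genes called higher (right) or lower (left) in the rostral fractions, pooled over C and Co (blue) and in Co alone (orange), with all genes tested in the top row; numbers after the names are genes tested. Of the lists drawn, those of olfactory sensory axons, ensheathing glia and meninges had the largest shares higher in both fits, and 10 of 11 myelin genes were lower.

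Sequences upstream of 3 genes that rose are shown because they stand for 3 of the cell groups described above: olfactory axons (S100a5), output neurons (Doc2g) and dopaminergic interneurons (Th). Each is 250 bases upstream of the RefSeq start on GRCm38.p6, on the gene's strand, read 5′ to 3′, from chr3:90608272-90608521 (S100a5, plus strand), chr19:4003135-4003384 (Doc2g, plus strand) and chr7:142899996-142900245 (Th, minus strand).
S100a5: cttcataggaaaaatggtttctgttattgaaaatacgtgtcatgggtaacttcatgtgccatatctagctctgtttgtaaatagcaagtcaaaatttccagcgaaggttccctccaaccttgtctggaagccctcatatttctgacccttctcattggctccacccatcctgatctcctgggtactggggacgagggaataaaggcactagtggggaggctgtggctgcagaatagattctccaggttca
Doc2g: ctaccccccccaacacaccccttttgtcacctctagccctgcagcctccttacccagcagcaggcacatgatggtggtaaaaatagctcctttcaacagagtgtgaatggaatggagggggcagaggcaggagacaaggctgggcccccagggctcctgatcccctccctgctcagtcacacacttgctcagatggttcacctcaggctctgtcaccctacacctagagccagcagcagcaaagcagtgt
Th: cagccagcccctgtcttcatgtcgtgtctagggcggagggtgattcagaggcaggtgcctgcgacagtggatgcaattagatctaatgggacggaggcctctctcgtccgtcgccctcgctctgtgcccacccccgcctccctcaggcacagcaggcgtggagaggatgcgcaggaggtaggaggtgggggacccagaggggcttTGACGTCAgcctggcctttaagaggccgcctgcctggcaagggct
Capitals mark the palindromic cAMP response element TGACGTCA, searched on both strands, which began 45 bases before the start of Th and was not found in the windows of S100a5 and Doc2g. It occurs in 1.55% of 32851 mouse promoter windows of the same length. A match or its lack is a description of these letters and does not show a factor's binding.

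Odorant receptor genes (symbols beginning with Olfr) are transcribed in the sensory neurons of the nose. Of 886 with a probe, 503 were detected on a coronal array, 270 on a rostral array and 41 on rostral arrays only. The last 41 entered through the rostral arrays alone, which favours a call (36 were called), so they are given no test. Of the 462 detected on another coronal array, 65 were higher and 8 lower, and of the 51 above background on all 29 arrays, 4 were higher and 4 lower. Over all genes 17.3% were higher and 13.9% lower. Those shares include genes detected on rostral arrays only, so they are not a matched baseline for the 462 or the 51. Receptor genes above background numbered 226 in C13, 150 in Co15 and 207 in Co16, against 119 to 210 on the other C arrays, 70 to 210 on the other Co arrays, 156 to 224 in H and 161 to 269 in Ho, so that C13 exceeded the other C arrays whereas Co15 and Co16 lay within the range of the other Co arrays.

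The signal of the called receptor genes was low. Olfr120 stood at -4.85 in C13, -3.70 in Co15 and -3.95 in Co16, against -9.45 to -7.08 (median -8.80) on the other C arrays and -9.51 to -7.02 (median -8.45) on the other Co arrays. It was well above background on all 3 rostral arrays and on 2 of the other 26, and rose (log2 difference 4.21 ± 0.45 (SE), adjusted p = 3.21e-07).

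The rule for named genes, the 15 largest differences in each direction among called genes beyond all other arrays, also brought up genes outside the lists. Higher were the calcium-activated chloride channel regulators Clca3a1 (7.17, adjusted p = 4.65e-05) and Clca3a2 (6.88, adjusted p = 6.17e-05), which are near-identical copies so their probes may share signal, the elongation factor Ell3 (6.80, adjusted p = 8.18e-06), the natriuretic peptide Nppa (6.05, adjusted p = 0.000288), Agr3 (5.63, adjusted p = 9.82e-06), the sulfotransferase Sult1d1 (5.58, adjusted p = 1.03e-05), 1700012B09Rik (5.25, adjusted p = 4.33e-05), the muscle Z-disc protein Myoz1 (5.13, adjusted p = 2.93e-06) and the steroid reductase Akr1c18 (5.07, adjusted p = 0.0425). Ell3, Agr3 and Sult1d1 were well above background on 4, 3 and 2 of the other 26 arrays, so the sizes of their differences rest largely on background values. Each of these 9 was called in Co alone except Akr1c18, whose call was lost without any 1 of the rostral arrays (5.11, adjusted p = 0.141 without C13) and without Co2 (4.92, adjusted p = 0.0505). Clca3a1 stood at 0.81 in C13, 1.02 in Co15 and 0.83 in Co16, against -8.55 to -1.62 (median -6.17) on the other C arrays and -9.17 to -1.01 (median -5.95) on the other Co arrays. C13 exceeded C12 by 2.43 and Co15 exceeded Co14 by 2.03, so the groups did not overlap.

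**Figure D3:**
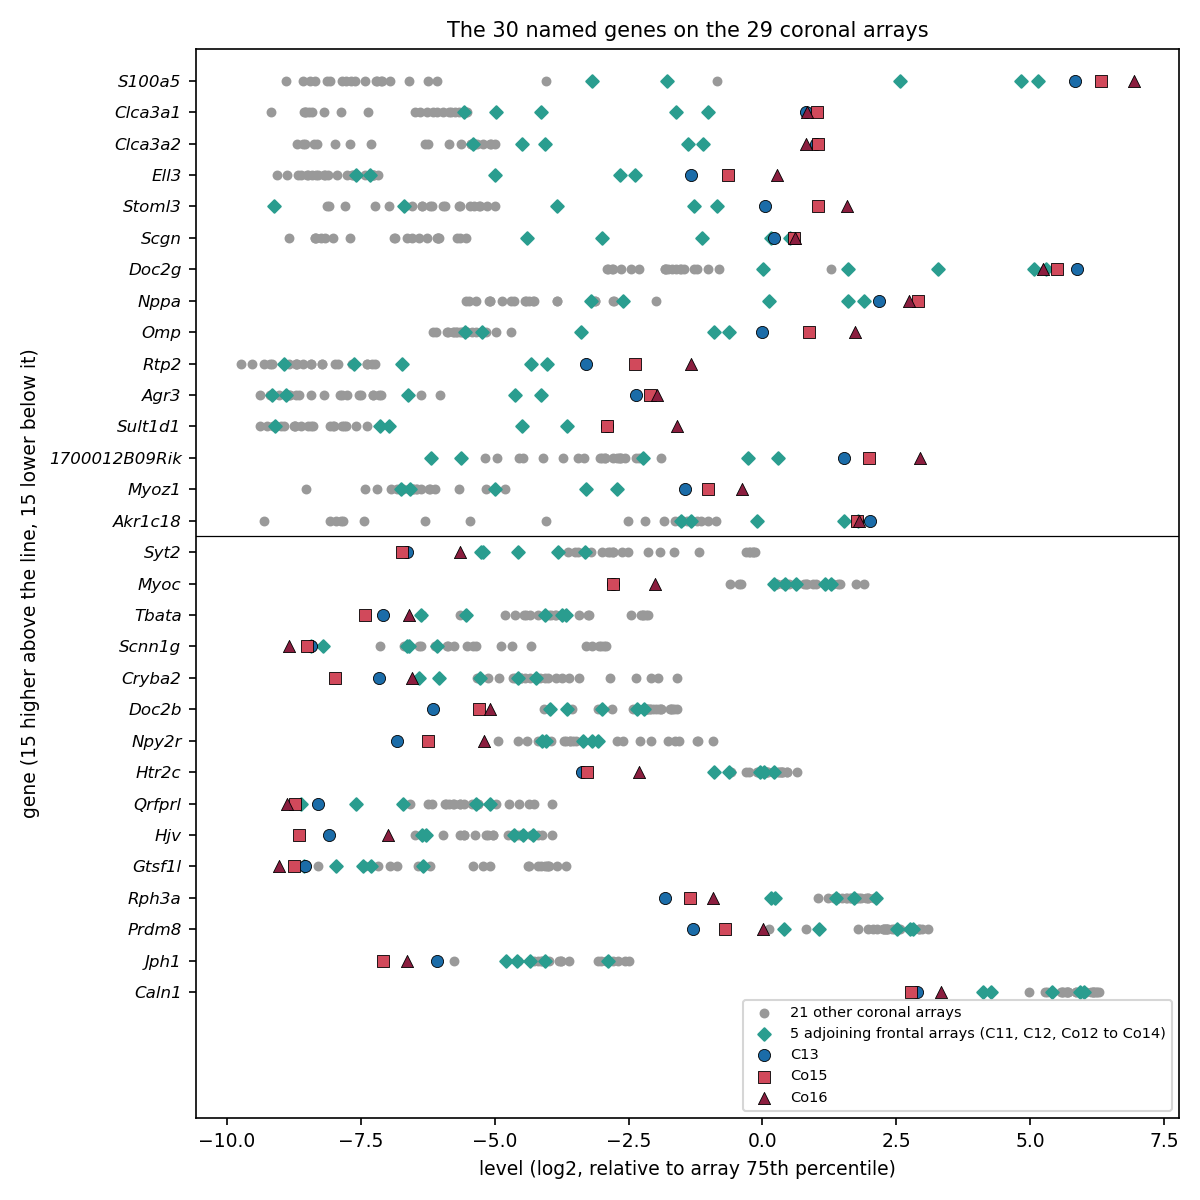
Levels of the 30 named genes (log2 signal relative to the array's 75th percentile) on the 29 coronal arrays: C13 (blue circle), Co15 (red square), Co16 (dark triangle), the 5 adjoining frontal arrays (green diamonds) and the 21 other arrays (grey). By the rule that chose them the rostral points lie beyond the others of their series. For every gene drawn as higher, the frontal points C12 and Co14 were the highest of the others in their series.

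Among the genes lower in the rostral fractions, Myoc, encoding myocilin, stood at -2.80 in C13, -2.78 in Co15 and -2.00 in Co16, against -0.43 to 1.75 (median 0.81) on the other C arrays and -0.60 to 1.90 (median 0.46) on the other Co arrays. The 3 rostral arrays lay below every other array (log2 difference -3.23 ± 0.38 (SE), adjusted p = 1.34e-06). Htr2c, a serotonin receptor of choroid plexus and forebrain, stood at -3.38 in C13, -3.28 in Co15 and -2.30 in Co16, against -0.90 to 0.65 (median 0.047) on the other C arrays and -0.61 to 0.46 (median 0.26) on the other Co arrays. It had the smallest SE of the 15 lower genes (log2 difference -3.06 ± 0.23 (SE), adjusted p = 1.42e-09), and in Co alone the difference was -2.89. Rph3a, a Rab3 effector of synaptic vesicles (-2.87, adjusted p = 8.49e-08), Caln1, a calcium-binding protein of neurons (-2.68, adjusted p = 1.7e-06), Prdm8 (-2.86, adjusted p = 4.99e-05), Jph1 (-2.74, adjusted p = 1.19e-06), Doc2b (-3.08, adjusted p = 7.2e-06), Syt2 (-3.89, adjusted p = 0.00194), Npy2r (-3.06, adjusted p = 0.00123), Cryba2 (-3.09, adjusted p = 0.00144) and Tbata (-3.14, adjusted p = 0.00164) fell. No rostral array measured Scnn1g, Qrfprl, Hjv or Gtsf1l above background, so these were at least 7.72-fold, 6.72-fold, 7.18-fold and 5.85-fold lower than the mean of the other 26 coronal arrays. Some adjoining frontal fractions were about as low, with Scnn1g at -8.20 in C12 and -8.43 in Co14, Qrfprl at -8.61 in Co14 and Gtsf1l at -8.56 in Co13. Hjv stood at -6.28 in C12 and -6.36 in Co14, above its levels of -8.10 in C13, -8.65 in Co15 and -7.00 in Co16. Scnn1g, Qrfprl, Hjv and Gtsf1l entered the comparison through the other arrays alone, so no test is given for them. The calls by which Scnn1g and Gtsf1l came to be named were absent in Co alone and without C13 or Co16. That of Gtsf1l was also lost without Co15.

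Myelin genes were lower. Of 12 listed genes 11 were detected and 10 fell, with a median difference of -1.69, and the same count fell in Co alone; with slide as a fixed block none was called (median -0.56). Mobp, a structural protein of compact myelin, stood at 1.01 in C13, 1.01 in Co15 and 0.87 in Co16, against 2.15 to 4.50 (median 3.32) on the other C arrays and 1.83 to 4.40 (median 2.97) on the other Co arrays. The rostral arrays lay below all others of their series and were close to each other (log2 difference -2.15 ± 0.40 (SE), adjusted p = 0.000209). The myelin basic protein gene Mbp fell (-1.16, adjusted p = 0.0012), whereas another Mbp probe did not pass the test (log2 difference -0.40). The list's mean linear level was 3.44, 3.28 and 3.33 in C13, Co15 and Co16, against 3.82 to 5.43 on the other C arrays and 3.60 to 5.42 on the other Co arrays. Of genes named for other regions, 0 of 11 striatal, 1 of 10 cerebellar (Itpr1, lower) and 1 of 12 cortical genes (Lamp5, lower, -1.01, adjusted p = 0.0115) passed the test. Over all genes 13.9% were lower. The median log2 differences of these 3 lists were -0.89, -1.81 and -0.019, so few calls do not mean equal levels. Another probe of the striatal gene Pde10a was called lower (-2.36, adjusted p = 0.0441). Lamp5 was lost without Co16 (-0.95, adjusted p = 0.0663) and Itpr1 without any 1 of the rostral arrays (-1.54, adjusted p = 0.0832 without C13).

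Of 8 meningeal genes 5 rose, 4 of them also in Co alone (17.3% and 9.56% over all genes). The list's mean linear level was 2.67, 2.70 and 3.81 in C13, Co15 and Co16, against 0.52 to 2.57 on the other C arrays and 0.81 to 2.71 on the other Co arrays. Dcn, which encodes the matrix proteoglycan decorin, stood at 3.95 in C13, 3.74 in Co15 and 5.54 in Co16, against 0.79 to 3.71 (median 2.29) on the other C arrays and 1.37 to 3.70 (median 2.71) on the other Co arrays. Co16 was the highest, and without it Dcn was no longer called (1.51, adjusted p = 0.0964). Ogn (0.90, adjusted p = 0.203), Slc22a6 (0.95, adjusted p = 0.119) and Lum (0.53, adjusted p = 0.362) were lost too. Lum was also lost without C13 (1.03, adjusted p = 0.0908). Islr (2.84, adjusted p = 0.000203 with all arrays) stayed called whichever array was left out, with adjusted p up to 0.00465. The tight junction gene Cldn5 stood at 4.81 in C13, 4.93 in Co15 and 5.41 in Co16, against 3.23 to 3.72 (median 3.52) on the other C arrays and 3.35 to 4.01 (median 3.61) on the other Co arrays. Every rostral array was above all others of its series (log2 difference 1.45 ± 0.12 (SE), adjusted p = 6.71e-09), whereas Pecam1 and the other 3 endothelial genes were not called.

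The remaining lists gave small counts, to be read beside the 17.3% higher and 13.9% lower of all genes. The collagen gene Col24a1 (3.25, adjusted p = 0.000728) and Tmem40 (2.90, adjusted p = 0.00162), which the study had taken as bulb markers from another dataset, both rose, while another Col24a1 probe had -0.17. Of 12 guidance and wiring genes 2 fell and none rose; these 2, Sema7a (-0.69, adjusted p = 0.0186) and Plxna1 (-0.35, adjusted p = 0.044), were lost without Co15 or Co16 (-0.69, adjusted p = 0.0718, and -0.29, adjusted p = 0.208, without Co16), Sema7a also without C13 and Plxna1 without any 1 of 13 other arrays. The mitotic gene Nusap1 was the 1 gene higher of 9 cell cycle genes (1.40, adjusted p = 0.00646) and was lost without Co16 (1.09, adjusted p = 0.0897). Of 10 astrocyte genes Glul rose (0.43, adjusted p = 0.0155; 0.37, adjusted p = 0.107 without Co16 and 0.39, adjusted p = 0.0813 without Co15), of 5 microglial genes Aif1 and C1qa rose (0.88, adjusted p = 0.0358, and 0.73, adjusted p = 0.0302), and of 2 detected blood genes the globin Hba-a1 rose (1.29, adjusted p = 0.0383), and these last 3 were lost without any of the rostral arrays (without C13, 0.83, adjusted p = 0.156 for Aif1, 0.61, adjusted p = 0.195 for C1qa and 1.44, adjusted p = 0.0912 for Hba-a1). Of 8 thalamic genes Lef1 was higher and Gbx2 lower, both lost without C13 (0.64, adjusted p = 0.0635, and -2.23, adjusted p = 0.204). Gbx2 was also lost without any 1 of 13 other arrays, and another Prkcd probe was called lower (-1.96, adjusted p = 0.0406). Of 6 hippocampal genes Prox1 was lower (-2.50, adjusted p = 0.000563), as was another probe of Tdo2 (-3.13, adjusted p = 0.0167). None of 7 hypothalamic, 10 midbrain and hindbrain or 5 choroid plexus genes passed the test. Their median log2 differences were -0.045, -1.03 and -1.36, so a lack of calls does not mean equal levels.

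Markers of nasal epithelium, the tissue that lies in front of the bulb, were detected for 7 of 8 genes. Cyp2g1, a cytochrome of the olfactory mucosa, was above background on none of the 3 rostral arrays, while Cbr2 (1.47, adjusted p = 0.0015), Trp63 (1.58, adjusted p = 0.0144) and Ugt2a1 (1.48, adjusted p = 0.00363) were called higher, and only Cbr2 was so in Co alone. Over all genes 17.3% were higher, and 9.56% in Co alone. Trp63 was lost without C13 (1.54, adjusted p = 0.0789) or Co16 (1.36, adjusted p = 0.101) and another of its probes had -0.065, and Ugt2a1 was lost without Co16 (0.88, adjusted p = 0.131). The list's mean linear level was -2.41, -2.33 and -1.58 in C13, Co15 and Co16, against -4.18 to -2.88 on the other C arrays and -3.83 to -2.53 on the other Co arrays. How far meningeal or nasal tissue takes part in the differences of olfactory genes was not tested.

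Steps between neighbouring fractions at the rostral end ran differently for the cell groups. From Co14 to Co15 the median step was 0.98 for the olfactory sensory genes and 1.09 for ensheathing glia, and from C12 to C13 it was 0.51 and 0.93. For interneuron factors the steps were 0.0039 and -0.058, and for mitral and tufted genes 0.00033 and 0.31. From Co15 to Co16 the olfactory sensory list went up by a median of 0.59 (12 of 14 genes). None of the 10 interneuron factors was higher in Co16, with a median of -0.42, and neuroblast genes had -0.45 (1 of 12 higher). The rise was not particular to the sensory genes. Medians were 1.07 for hypothalamic genes (7 of 7 higher), 0.96 for meningeal genes (8 of 8) and 0.90 for nasal epithelium genes (7 of 7). Over all genes the 3 steps had medians of -0.054, 0.05 and 0.019. Each step rests on 1 array per side, so it is a description with no replicate check.

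**Figure D4:**
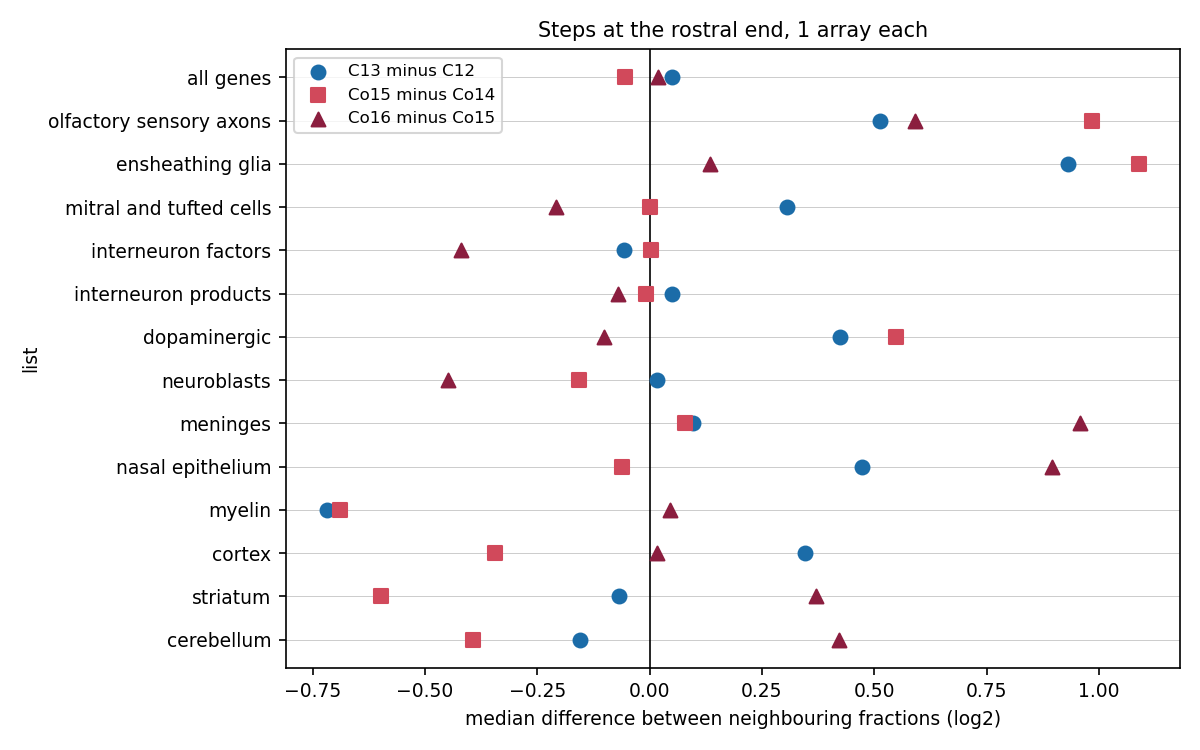
Median difference in level (log2) over each list's genes between neighbouring fractions at the rostral end: C13 minus C12 (blue circles), Co15 minus Co14 (red squares) and Co16 minus Co15 (dark triangles), with all genes on top. Olfactory sensory axon genes stepped up at all 3 borders, interneuron factors and neuroblast genes stepped down from Co15 to Co16, and meningeal genes stepped up there by 0.96.

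The closest comparison was with the 5 adjoining frontal fractions, which varied widely in bulb genes, with Omp at -5.24 in C11, -0.91 in C12, -5.56 in Co12, -3.39 in Co13 and -0.63 in Co14. Only 73 of 14031 genes (0.52%) were higher and 20 (0.143%) lower. Of the named genes higher, Olfr212, Olfr120, Olfr263, Olfr1428 and Bpifa1 (a secreted protein of airway lining) were above background on none of the 5 frontal arrays. They could enter the comparison through the rostral arrays alone, so no test is given for them, and were at least 11.6-fold, 13.3-fold, 13.4-fold, 9.81-fold and 10.5-fold higher. Lower were Myoc (-3.27, adjusted p = 0.04), Htr2c (-2.75, adjusted p = 0.0496) and the transcription factor Tfap2d (-2.40, adjusted p = 0.0496), the last above background on 1 of the 3 rostral arrays. Lefty2 and Olfr320 were above background on none of the rostral arrays and on 5 and 2 of the frontal ones.

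In the marker lists Npy (1.28, adjusted p = 0.0496), Agt (2.31, adjusted p = 0.0496) and Cldn5 (1.34, adjusted p = 0.0496) were higher; none of the olfactory sensory, mitral, interneuron or dopaminergic genes passed the test here. Without any 1 of the 8 arrays the calls of Npy, Agt, Cldn5, Myoc, Htr2c and Tfap2d were lost. In Co alone no probe was called by limma, with 3697 higher and 4405 lower at an unadjusted p below 0.05.

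The bulbs lie beside the midline, so the sagittal series S and So, from other brains, gave a second view, although other midline structures lie there too. The 6 medial fractions (S5 to S7 and So5 to So7) were compared with the 13 lateral ones, and 1428 of 13922 genes (10.3%) were higher and 1420 (10.2%) lower. Th was higher medially (log2 difference 2.44 ± 0.50 (SE), adjusted p = 0.00638), as were Stoml3 (2.15, adjusted p = 0.0113), Sall3 (0.98, adjusted p = 0.00648) and the midbrain-shared Slc6a3 (3.74, adjusted p = 0.00801). Scgn (2.64, adjusted p = 0.0295), Sp8 (1.94, adjusted p = 0.024), Doc2g (1.84, adjusted p = 0.0421), Eomes (1.82, adjusted p = 0.0349) and Trh (1.57, adjusted p = 0.0445) were called as well, yet their calls were lost when single arrays were left out, for Doc2g in 13 of 19 cases, for Trh in 12, for Eomes in 7 and for Scgn and Sp8 in 5. In S, Scgn (-2.87) and Tbx21 (-0.21) peaked in S8, which counted as lateral. Tbx21 (1.87, adjusted p = 0.0548), Cdhr1 (1.47, adjusted p = 0.0578), S100a5 (2.16, adjusted p = 0.0818) and Omp (0.92, adjusted p = 0.116) were not called. Of the lists, 5 of 10 interneuron factors were higher and none lower, against 1 higher and 1 lower of 13 olfactory sensory genes. Among the other lists, 7 of 7 hypothalamic, 8 of 10 midbrain and hindbrain and 5 of 6 dopaminergic genes were higher medially, larger shares than among the interneuron factors. Centring arrays on their median moved the share of calls that were higher from 52.4% to 32.5%.

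**Figure D5:**
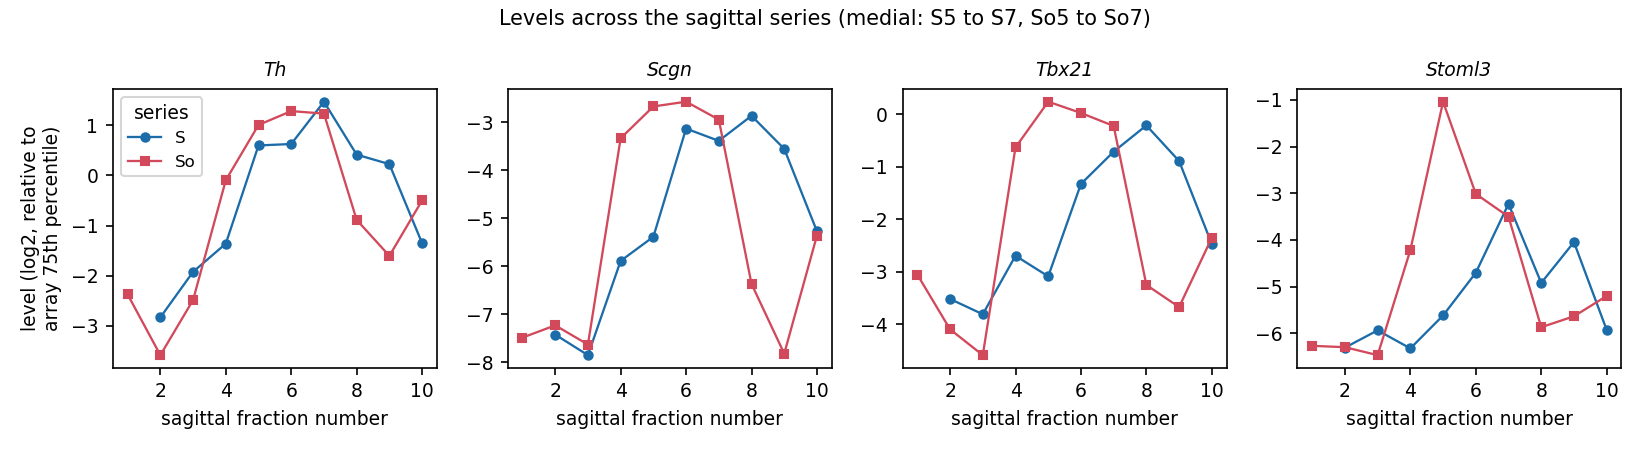
Levels of Th, Scgn, Tbx21 and Stoml3 (log2 signal relative to the array's 75th percentile) by fraction number in the sagittal series S (circles) and So (squares), 1 array per point. Th and Scgn were highest in the middle numbers of both series, with the peak of S at fractions 7 to 8 and that of So at 5 to 6.

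An interaction term set the rostral difference in Co against that in C, where C13 is the only rostral array and is assumed to vary like the others. It passed the threshold for 635 of 15137 genes (4.2%), which is no measure of a difference between brains. The fitted Co minus C value was -1.61 for Gad2, 1.34 for Adcy3 and 0.97 for Pecam1. Brain, position and the scan day of C13 cannot be told apart for these genes.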

How the data were processed

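Total RNA of each fraction was labelled with Cy3 and hybridised to a 1-colour Agilent whole mouse genome array; the deposited scanner files hold intensity per spot, processed by the authors in Agilent Feature Extraction 9.1, per the labels. The authors also deposited a table of normalized values, used as an alternative on the log2 scale; it held 36558 probes. Its differences from the scanner values had an SD within an array of at most 0.0815 (log2).

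From the processed signal, log2 values were averaged over the spots of a probe (41174 non-control probes) and the 75th percentile of each array was subtracted. A probe was tested if it was well above background on at least 1 of the arrays compared. Genes were named through RefSeq accessions (16355 genes with a probe), and a gene was represented by its detected probe with the highest mean over the 29 coronal arrays. Differences were fitted with limma 3.58.1 in R 4.3.3 (series as a fixed block, called at a Benjamini-Hochberg adjusted p below 0.05). Adjustment ran over all detected probes. The median SD between spots of a probe was 0.064 on the log2 scale, and precision is limited by how many arrays each side holds. The fits were first tested on simulated data with 200 changed probes. Changes of 1 and 2 (log2) were recovered for 62% and 80% against the other coronal arrays and 32% and 63% against the frontal fractions. For the sagittal comparison the shares were 71% and 91%, and for the interaction 13% and 50%. Simulated errors were independent between arrays, whereas neighbouring fractions share a brain. A gene not called, above all against the frontal fractions, is therefore not shown to be unchanged.

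Named genes were list members and, among called genes lying beyond every other array of their own series on all 3 rostral arrays, the 15 largest differences in each direction (5 in each direction against the frontal fractions). The members and the 26 gene lists were chosen with earlier results of these data known, so counts over lists are descriptions. Some single-gene results are not reported here. A bound ("at least N-fold") was used where no array of a group was above background: the brighter group's mean was set against the mean, over the dim group's arrays, of the higher of the lowest signal above background and the probe's own. Alternatives covered the block, scaling, background correction, the dim-probe filter, slide, threshold and single arrays left out. Figures were drawn with matplotlib 3.10.9 in Python 3.11.15.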

Additional observations from a re-analysis of the deposited data

Results flagged for a closer look

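For 3 listed genes the interaction term in limma passed the threshold, with the fitted rostral difference in Co minus that in C at 1.34 for Adcy3 (adjusted p = 0.0417), -1.61 for Gad2 (adjusted p = 0.0132) and 0.97 for Pecam1 (adjusted p = 0.0147), on the log2 scale. The side of C is the 1 array C13, assumed to vary like the others, and its scan day differed from theirs, so no difference between brains follows, and brain and scan cannot be told apart.

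Among the 6 medial sagittal fractions, S5 stood far below the others for Scgn (-5.39) and Sp8 (-2.79). Of 13 genes examined in the medial fractions these 2 showed such an array, and of 13 examined in the 5 frontal fractions 0 did. Chance gives about 1 in 20 among replicates, but these fractions differ in position, so that rate does not apply to them. For Scgn the neighbours of S5 stood at -5.89 in S4 and -3.14 in S6.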

How the results depend on the processing

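Probes called higher and lower against the other coronal arrays numbered 4750 and 4999 of 34857. They came to 2561 and 2852 in Co alone, 2388 and 2193 in C alone, 3448 and 3398 for C13 against the H and Ho arrays of its scan day, 1074 and 719 with slide as a fixed block (in effect Co15 and Co16 against Co13 and Co14), 927 and 827 with 1 mean per mouse and side, and 2968 and 3049 at an adjusted p below 0.01. Without the series (replicate) block, which marks the brain shared by the fractions of a series, they were 3897 and 3862. Leaving out single arrays gave 2822 to 5091 higher and 3160 to 5291 lower, lowest without C13, and leaving out the frontal fractions, chosen after seeing the data, 5154 and 5840. Against the frontal fractions, 107 probes were higher and 40 lower. There the numbers were 212 and 83 without the series block, 45 and 22 with median scaling (which moved the median of all probes by -0.11), 1179 and 1234 with normexp and quantile normalization, 69 and 34 in the authors' table, 30 and 5 over all probes, and 1087 and 1142 over probes above background on all arrays. By limma 0 and 0 were called in Co alone (3697 and 4405 at an unadjusted p below 0.05), for Co15 and Co16 against Co13 and Co14 (2585 and 2359), and at an adjusted p below 0.01 (5032 and 5238 at an unadjusted p below 0.05); single arrays left out gave 0 to 28 higher and 0 to 2 lower. In the sagittal comparison 2938 and 2668 became 2049 and 1918 without the series block, 1857 and 3862 with median scaling, 1852 and 3899 in the authors' table, and 4955 and 4560 without fractions 4 and 8; single arrays left out gave 1455 to 3819 and 1323 to 3342. The interaction had 758 higher and 1205 lower probes. The direction turned for Plxna1 in C alone (0.020), for Gbx2 (0.24) with slide as a fixed block, and for other probes of Col24a1 (-0.17), Gnal (0.27) and Trp63 (-0.065). The cause was not tested.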
